A study of Homo sapiens with 3 samples.

Results

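Clusters antisense to Alu repeats are stretches of RNA cross-linked to DICER whose own strand runs opposite to an annotated Alu element. Every cluster off the mitochondrial chromosome was taken whose annotation named an Alu on the opposite strand and none on its own strand. Clusters with a named noncoding RNA class on their own strand were left out. Not every noncoding gene carried such a class, and clusters in the noncoding genes GAS5 and SNHG1 stayed in. The 3 replicate lists held 366 of 11577, 1375 of 18065 and 384 of 5099 clusters that met this rule, together 2125 of 34741. A series-wide list, which the authors made from all replicates together, held 325 of 8469. A further 82, 108 and 20 clusters had Alu on both strands and were left out, as was 1 cluster of replicate 2 with a named noncoding RNA class.

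The study used PAR-CLIP to map RNA bound by DICER in a Flp-In HEK293 T-Rex line, derived from human embryonic kidney, in which a transgene supplied DICER with a FLAG tag. In PAR-CLIP, a light-sensitive uridine analogue built into the RNA is cross-linked to the protein by ultraviolet light, and cross-linked positions are read as T-to-C conversions. The samples were 1 group of 3 replicates, all labelled T1, from 1 transgenic line. No library without the tagged protein or without cross-linking was used here, so no background level stands beside the values, and all comparisons are between kinds of cluster within the same lists. The labels do not say that the replicates were separate cultures, so the p-values below rest on these 3 samples only, whose spread may be technical. Where all 3 values share a sign, the p-value is the same whatever their spread.

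DICER, an RNase III enzyme, turns long double-stranded RNA and the hairpins of miRNA precursors into small RNAs. Alu elements are primate retrotransposons related to the 7SL RNA of the signal recognition particle, and they are frequent in introns and in the 3' untranslated regions of mRNAs. An Alu transcribed within a host gene in antisense orientation carries the complement of the element's A-rich tail as a run of uridines. Where an antisense and a sense copy lie in 1 transcript, the copies can pair into a long hairpin, and such hairpins are known targets of adenosine editing.

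The lists held 2033712, 1981016 and 994812 reads, of which the antisense Alu clusters had 7051, 8996 and 7895. They differed in make-up: 51.8%, 27.9% and 18.8% of all clusters had at least 3 distinct reads. In an attribute on library support, which the files do not define, 51.5%, 92.1% and 99.5% had the value 2. Of 5 genes chosen as markers of HEK293 cells, LIN28B and the miRNA genes MIR17, MIR20A and MIR221 had a cluster in all 3 replicates. NEFL, the other gene, had none in replicate 3. Whether these genes are particular to HEK293 cells was not tested. None of 6 markers of liver, blood, pancreas, neurons and muscle had a cluster in any replicate.

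Antisense Alu clusters held a larger share of the clusters than of the conversions or reads. They made up 3.16% of the clusters in replicate 1, with an exact 95% binomial interval of 2.85 to 3.50%. In replicate 2 the share was 7.61% (7.23 to 8.01%), and in replicate 3 it was 7.53% (6.82 to 8.29%). The intervals of replicates 2 and 3 overlapped each other and lay above that of replicate 1. They cover counting error only. The mean share was 6.10% ± 2.55 (SD, n = 3). Of the conversions in the lists, the antisense Alu clusters held 0.431%, 0.801% and 1.31%, and of the distinct reads 1.06%, 2.94% and 2.72%. Both shares were thus below the share of clusters in each replicate. The same held for clusters within an Alu on their own strand. Those made up 2.82%, 5.61% and 5.81% of the clusters. They held 0.372%, 0.625% and 1.03% of the conversions, and 1.01%, 2.33% and 2.23% of the distinct reads. At least 3 distinct reads stood behind 39.9%, 14.7% and 3.91% of antisense Alu clusters, in each replicate a smaller share than in the whole list. For clusters within an Alu on their own strand it was 40.8%, 16.9% and 7.09%, also below the list. Antisense Alu clusters had 6.08, 2.74 and 9.86 reads per distinct read, against 18.6, 17.8 and 33.8 in the lists. Such totals include very large clusters and do not describe a typical one. The lists held 1306125, 1060791 and 595487 conversions. In each list, 1 cluster with no Alu on either strand had many of them: 408164, 189444 and 95718. Median conversions per cluster, given below, were close between the kinds.

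Antisense clusters outnumbered those within an Alu on their own strand, called sense Alu clusters here, in all 3 replicates. There were 366 antisense and 326 sense clusters in replicate 1, 1375 and 1014 in replicate 2, and 384 and 296 in replicate 3. The antisense-to-sense ratios were 1.12, 1.36 and 1.30, a mean log2 ratio of 0.33 ± 0.14 (SD, n = 3; higher in 3 of 3 replicates). An exact two-sided sign-flip permutation test over the replicates gave p = 0.25, the smallest value that 3 replicates allow, and adjusted p = 0.411 over the 23 tests of this kind. No comparison in the text can therefore pass a threshold of 0.05. With clusters of a kind within 300 nt of each other counted once, a setting chosen after seeing the data, the ratios were 1.10, 1.35 and 1.32.

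The excess was carried by clusters with exactly 2 distinct reads in number: 220 antisense against 193 sense in replicate 1, 1173 against 843 in replicate 2, and 369 against 275 in replicate 3. Among clusters with at least 3 distinct reads the numbers were 146 against 133, 202 against 171, and 15 against 21. The mean log2 ratio of these was −0.04, so its sign turned, through replicate 3 alone. The number of annotated Alu copies in each orientation was not used here, so a ratio cannot be read against the genome.

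**Figure D1:**
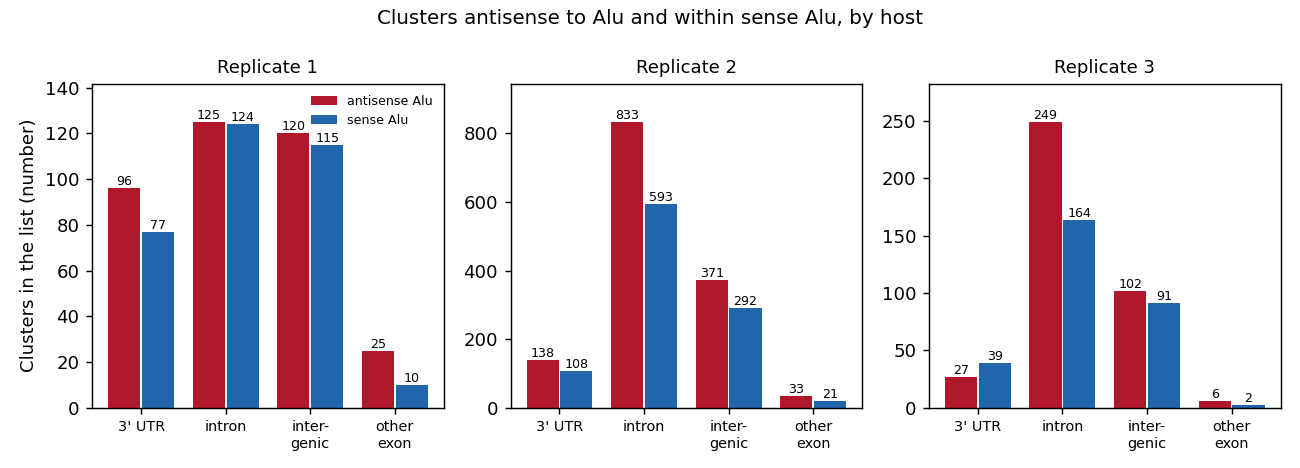
Number of clusters antisense to Alu (red) and within sense Alu (blue) in each replicate list, by the region of the gene on the cluster's own strand; the vertical axes differ between the 3 panels. Antisense clusters were at least as many in every group but the 3' untranslated regions of replicate 3 (27 against 39).

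Introns held the largest group of antisense Alu clusters, with 125, 833 and 249 clusters in replicates 1, 2 and 3. This was 34.2%, 60.6% and 64.8% of the antisense Alu clusters, against 14.3%, 26.1% and 27.8% of the clusters without Alu. Clusters without Alu, here and below, had no Alu on either strand and lay off the mitochondrial chromosome. They also had no named noncoding RNA class on their own strand, by the same rule as the antisense Alu clusters, and numbered 9659, 14483 and 3749. Sense Alu clusters had 38.04%, 58.5% and 55.4% in introns, more than antisense ones in replicate 1 and less in the others. The difference between antisense Alu clusters and those without Alu was 30.5 percentage points ± 9.26 (SD, n = 3; higher in 3 of 3; exact sign-flip permutation p = 0.25, adjusted p = 0.411). In introns the antisense clusters faced 124, 593 and 164 sense clusters, a mean log2 ratio of 0.37 ± 0.31 (SD, n = 3; higher in 3 of 3; exact permutation p = 0.25, adjusted p = 0.411). In replicate 1 the intronic numbers differed by 1 cluster only. With at least 3 distinct reads the mean intronic log2 ratio was −0.36, and the intronic share was 14.9 points above that of clusters without Alu.

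In 3' untranslated regions there were 96, 138 and 27 antisense Alu clusters against 77, 108 and 39 sense Alu clusters. The direction thus differed between replicates, and the mean log2 ratio was 0.05 ± 0.50 (SD, n = 3; exact sign-flip permutation p = 1). With at least 3 distinct reads there were 47 against 39, 46 against 35 and 4 against 3, a mean log2 ratio of 0.36 with the antisense number higher in 3 of 3 replicates (exact permutation p = 0.25). Of the antisense Alu clusters, 26.2%, 10.04% and 7.03% lay in 3' untranslated regions, in each replicate a smaller share than the 41.9%, 32.6% and 28.8% of clusters without Alu.

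Clusters with no exon or intron on their own strand, called intergenic here, numbered 120, 371 and 102 antisense against 115, 292 and 91 sense. The mean log2 ratio was 0.19 ± 0.14 (SD, n = 3; higher in 3 of 3; exact permutation p = 0.25, adjusted p = 0.411), and with at least 3 distinct reads it was −0.11. Of these antisense clusters, 30, 118 and 37 lay opposite an annotated gene. The remaining host class, exons other than 3' untranslated regions, held 25, 33 and 6 antisense clusters against 10, 21 and 2 sense clusters.

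The strand balance of Alu lay between those of LINE/L1 and SINE/MIR, the highest and lowest of the 7 families compared. The comparisons with these families were added after the data had been seen. Clusters on LINE/L1, the autonomous retrotransposon whose proteins also move Alu, were 191 antisense against 56 sense in replicate 1, 588 against 185 in replicate 2, and 127 against 52 in replicate 3, ratios of 3.41, 3.18 and 2.44. Clusters on SINE/MIR, an older family of short elements, leaned to the sense strand, with 46 against 113, 115 against 239, and 23 against 43, ratios of 0.407, 0.481 and 0.535. The log2 ratio of Alu was below that of L1 by 1.25 ± 0.35 and above that of MIR by 1.41 ± 0.12 (SD, n = 3), each in 3 of 3 replicates (exact sign-flip permutation p = 0.25, adjusted p = 0.411). The series-wide distance to MIR was larger, at 2.13. LTR/ERVL-MaLR, with ratios of 1.32, 1.28 and 1.28, overlapped the range of Alu. So did LTR/ERV1, with 1.10, 1.29 and 1.06, and, through replicate 1 only, LINE/L2, with 1.13, 0.738 and 0.615. DNA/hAT-Charlie lay slightly below, with 1.07, 1.07 and 1.04.

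**Figure D2:**
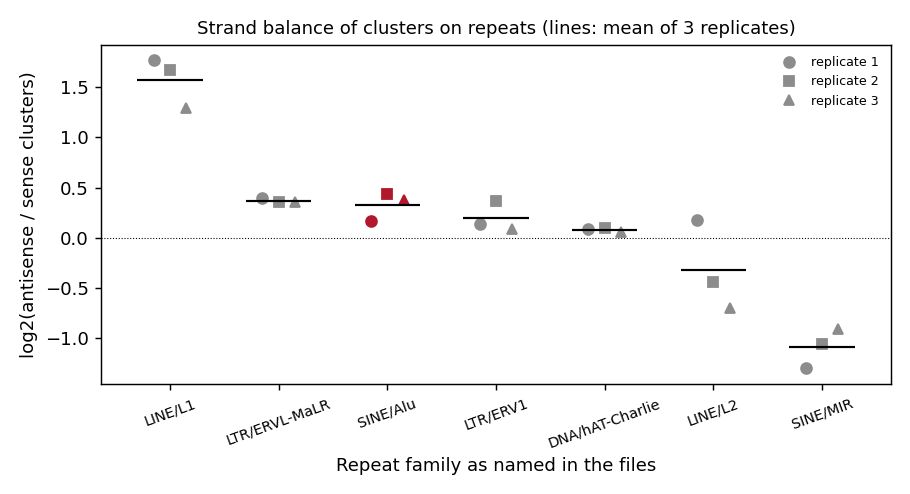
Log2 ratio of antisense to sense clusters for 7 repeat families, 1 point per replicate, with the mean as a line; Alu is in red. Alu lay at 0.17, 0.44 and 0.38, all L1 points lay above and all MIR points below it.

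Median conversions of antisense Alu clusters were close to those of other clusters when all were counted. The median was 11, 5 and 18 conversions in replicates 1, 2 and 3, against 11, 5 and 19 in sense Alu clusters and 12, 5 and 17 in clusters without Alu. The log2 difference from sense Alu clusters was −0.03 ± 0.05 (SD, n = 3; exact sign-flip permutation p = 1). With at least 3 distinct reads it was 0.55, higher in 3 of 3 replicates (exact permutation p = 0.25). Replicate 3 then had only 15 antisense and 21 sense Alu clusters. The middle 50% of antisense Alu clusters ran from 7 to 19, from 3 to 8 and from 9 to 30 conversions, and the highest value was 236, 138 and 72. The median number of distinct reads was 2 in every replicate and both orientations, and in the series-wide list it was 3 for antisense and 2 for sense clusters. Median lengths were 31, 28 and 27.5 nt for antisense and 30, 28 and 28 nt for sense clusters.

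By host, the median in 3' untranslated regions was 14.5, 6 and 22 conversions for antisense Alu clusters and 14, 6 and 20 for clusters without Alu. In introns the medians were 11, 5 and 17 against 11, 5 and 16. In intergenic clusters they were 9, 5 and 18.5 against 10, 5 and 15. The log2 differences were 0.06 ± 0.07, 0.03 ± 0.05 and 0.05 ± 0.23 (SD, n = 3), none larger than the spread between replicates. In each replicate the 3' untranslated regions had the highest of these 3 medians for the antisense Alu clusters.

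**Figure D3:**
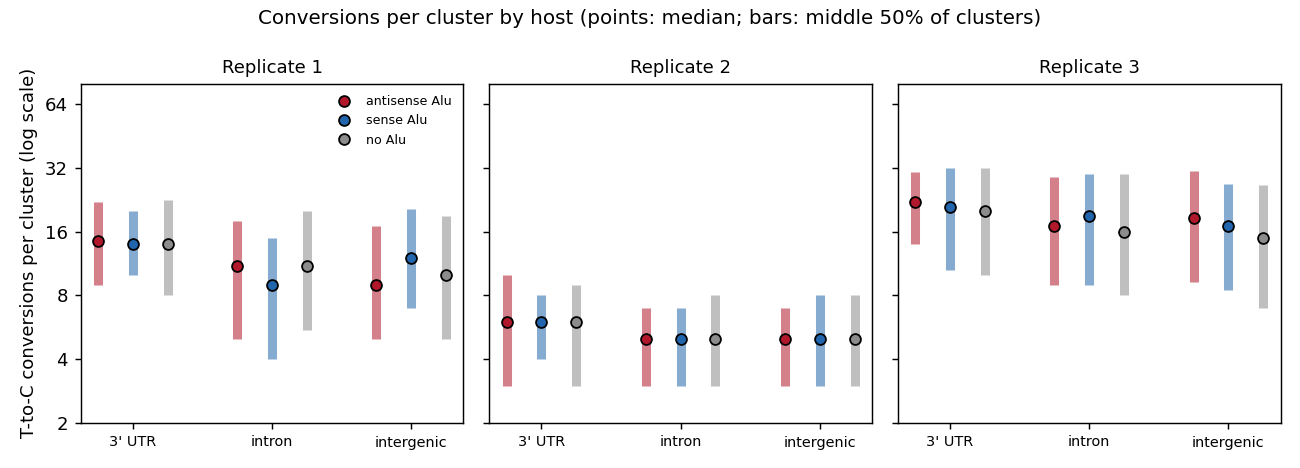
T-to-C conversions per cluster on a log scale for clusters antisense to Alu (red), within sense Alu (blue) and without Alu (grey), by host and replicate; points are medians and bars the middle 50% of clusters. The bars of the 3 kinds overlap in every host, and replicate 2 is lowest, with antisense medians of 6, 5 and 5.

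AluS, the middle age class of the family, led among the antisense clusters. It was named for 231 of 366, 876 of 1375 and 242 of 384 clusters, 63.3% ± 0.373 (SD, n = 3). AluJ, the oldest class, followed with 24.98% ± 0.349, then AluY, the youngest, with 10.4% ± 1.87, and the free monomers FLAM, FRAM and FAM with 2.93% ± 1.28. A cluster that touched several elements counted for each. Sense Alu clusters had 58.5% ± 2.66 AluS, 29.3% ± 2.09 AluJ and 8.92% ± 2.20 AluY. The AluS share of antisense clusters was above that of sense clusters by 1.77, 5.62 and 6.94 percentage points, and the AluJ share differed from it by −3.94, −6.57 and −2.44 points. In the series-wide list the differences were 10.1 and −11.1 points. Each difference had the same sign in 3 of 3 replicates (exact sign-flip permutation p = 0.25, adjusted p = 0.411). The AluY difference was 1.45 points ± 0.776 (SD, n = 3) and turned to −0.183 points with at least 3 distinct reads.

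The subfamily names AluJb, AluSx, AluSx1, AluSz and AluY were the 5 most frequent in each replicate. AluJb was the most frequent, with 43, 169 and 49 clusters, though AluSx had 42 in replicate 1. In the series-wide list AluJb had 30, behind AluSx with 43, AluSx1 with 41, AluY with 36 and AluSz with 34. The share of antisense clusters in introns was 54.5%, 68.9% and 68.8% for AluY, 33.8%, 61.9% and 64.5% for AluS, and 32.2%, 55.9% and 63.9% for AluJ, the same order in each replicate. AluY had only 33 antisense clusters in replicate 1. Among sense Alu clusters AluY was also highest, with 50%, 64.4% and 60.6% in introns. There AluS had 36%, 58.2% and 55.4%, and AluJ 40.9%, 58.6% and 58.5%. The median conversions of antisense clusters of the 3 classes were 12, 11 and 12 for AluY, AluS and AluJ in replicate 1, 5 for each in replicate 2, and 20, 18 and 16 in replicate 3.

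Few antisense Alu clusters recurred. Positions and Alu names are those deposited, and whether reads in a repeat could be placed at 1 copy only was not tested. A cluster of both other replicates overlapped 20 of 366 antisense Alu clusters of replicate 1 by at least 1 nt on the same strand, or 5.46%, while 11.8% of all clusters of that list were overlapped so. In replicate 2 the number was 19, or 1.38%, against 7.51% of the list, and in replicate 3 it was 23, or 5.99%, against 27.9% of the list. Sense Alu clusters had 6.13%, 2.17% and 7.09%. The difference between orientations was −0.854 percentage points ± 0.225 (SD, n = 3; lower in 3 of 3; exact sign-flip permutation p = 0.25, adjusted p = 0.411). It was 0.447 points among clusters with exactly 2 distinct reads, and −7.92 points among those with at least 3, of which replicate 3 had only 15 antisense and 21 sense clusters, so its sign and size depended on the clusters kept.

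At least 1 other replicate overlapped 113 antisense Alu clusters of replicate 1 (30.9%, against 37.8% of the list), 131 of replicate 2 (9.53%, against 25% of the list) and 56 of replicate 3 (14.6%, against 41.5%). Sense Alu clusters had 26.7%, 9.37% and 13.2%, in each replicate below antisense ones, the opposite direction to overlap in both other replicates. By host, antisense Alu clusters of introns and intergenic sequence were below clusters without Alu in each replicate. The share of intronic antisense Alu clusters overlapped differed from that of intronic clusters without Alu by −8.32, −9.38 and −17.7 percentage points, and the share of intergenic ones by −16.7, −11.1 and −20.3 points (each lower in 3 of 3; exact sign-flip permutation p = 0.25, adjusted p = 0.411). In 3' untranslated regions the difference was 6.91, −2.36 and 1.30 points. Sense Alu clusters were also low: in introns 22.6%, 5.73% and 7.93% of them were overlapped, against 31.2%, 5.88% and 11.2% of antisense Alu clusters and 39.5%, 15.3% and 28.9% of clusters without Alu. Among clusters with exactly 2 distinct reads the mean differences were −3.10 points in introns, −7.83 points in intergenic clusters and 1.32 points in 3' untranslated regions. With at least 3 distinct reads they were −33.5, −22.1 and −5.92 points, where replicate 3 had 6, 5 and 4 antisense Alu clusters, and in the series-wide list the intronic difference was −2.27 points. Merged over the 3 replicates, the antisense clusters formed 1974 loci, of which 1842 were found in 1 replicate, 114 in 2 and 18 in all 3. The loci in 2 or 3 replicates were 6.69% of these, against 5.98% for sense Alu and 15.1% for clusters without Alu.

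Of the 325 antisense Alu clusters in the series-wide list, 20 were overlapped in all 3 replicates, 114 in 2, 126 in 1 and 65 in none. The 20 were 6.15% of them, against 15.9% of that whole list, and the 260 found in at least 1 replicate were 80% of them, against 85.6% of the list. Those in all 3 replicates were 8 in 3' untranslated regions, 9 in introns and 3 in intergenic sequence. Up to 8 of each host, those with the most conversions, are described next with their hg19 positions, and all were chosen for recurring, so their presence in 3 replicates is a description. Replicate 3 had 2 distinct reads behind most of them.

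The cluster with the most conversions lay in the 3' untranslated region of RPL7L1, which encodes a protein related to ribosomal protein L7. It spanned 42856055 to 42856100 on the plus strand of chromosome 6, antisense to an AluSz, and had 236, 94 and 72 conversions from 27, 26 and 6 distinct reads in replicates 1, 2 and 3. It was the antisense Alu cluster with the most conversions in replicates 1 and 3 and the second in replicate 2. Smaller clusters antisense to AluSz flanked it, at 42855992 to 42856023 with 11 conversions in replicate 1, and at 42856127 to 42856155 with 3 conversions in replicate 1 and 7 in replicate 3.

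ZNF793, a gene of the zinc finger family, had a 3' untranslated cluster antisense to an AluSg at 38029377 to 38029430 on the plus strand of chromosome 19, with 54, 38 and 66 conversions. AHR, the ligand-activated aryl hydrocarbon receptor, had 74, 14 and 22 conversions antisense to an AluSx at 17384537 to 17384588 on the plus strand of chromosome 7. EIF2S3, a subunit of the translation initiation factor eIF2, had 38, 24 and 28 conversions antisense to an AluSx at 24095374 to 24095428 on the plus strand of chromosome X. These conversions are not scaled to the lists' totals of 1306125, 1060791 and 595487. As a share of the list's conversions, ZNF793 and EIF2S3 were highest in replicate 3 and AHR was highest in replicate 1.

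TSPYL1 had 70, 2 and 20 conversions antisense to an AluSg at 116598847 to 116598875 on the minus strand of chromosome 6, opposite DSE. LIMD1, a LIM domain adaptor of processing bodies, had 26, 17 and 11 conversions antisense to an AluJb at 45721935 to 45721981 on the plus strand of chromosome 3. ATAD5, which unloads the replication clamp PCNA, had 23, 8 and 12 conversions antisense to an AluSz at 29222477 to 29222502 on the plus strand of chromosome 17. PGAM5, a mitochondrial phosphatase, had 9, 6 and 10 conversions antisense to an AluSg at 133298786 to 133298840 on the plus strand of chromosome 12. The overlapping PGAM5 clusters of replicates 2 and 3 did not themselves meet the rule for an antisense Alu cluster.

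**Figure D4:**
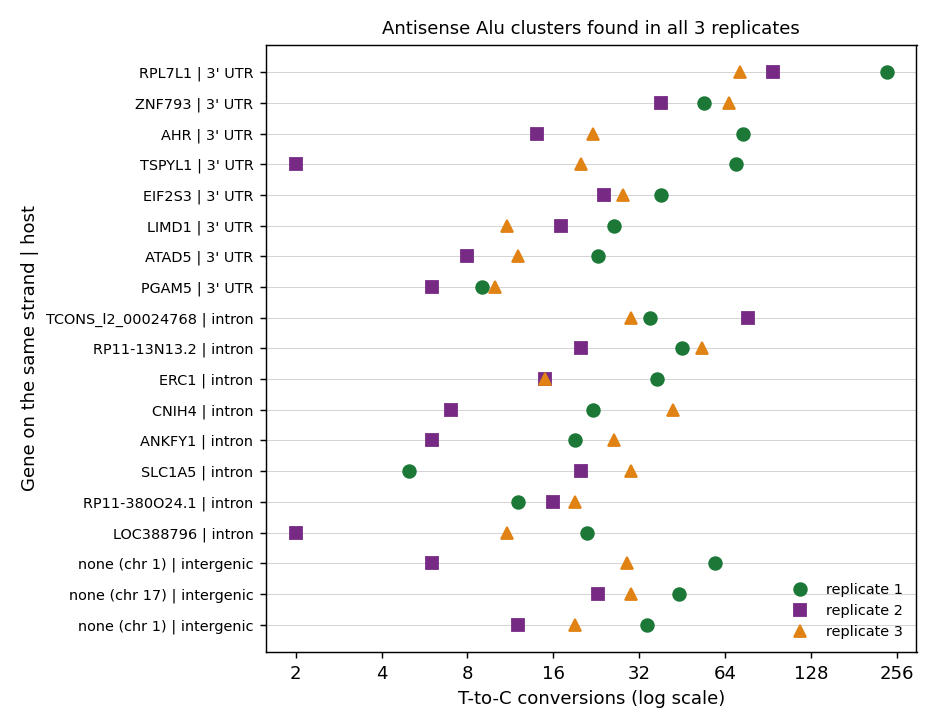
T-to-C conversions (log scale) in each replicate for the 19 antisense Alu clusters described that were found in all 3 replicates, by gene and host. RPL7L1 lies farthest right with 236, 94 and 72 conversions, and TSPYL1 has the widest spread, from 2 to 70.

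Among intronic clusters, the highest was in the transcript model TCONS_l2_00024768, antisense to an AluSq2 at 44063471 to 44063506 on the minus strand of chromosome 6, with 35, 77 and 30 conversions. The gene model RP11-13N13.2 had 45, 20 and 53 conversions antisense to an AluY at 19211592 to 19211663 on the plus strand of chromosome 18. CNIH4, a cargo receptor of the endoplasmic reticulum, had 22, 7 and 42 conversions at 224547398 to 224547431 on the plus strand of chromosome 1, where the opposite strand named both AluJb and AluSx3. ANKFY1, an endosomal protein, had 19, 6 and 26 conversions antisense to an AluSx1 at 4132410 to 4132451 on the minus strand of chromosome 17. Replicate 2 was lowest in RP11-13N13.2, CNIH4 and ANKFY1, and highest in TCONS_l2_00024768.

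SLC1A5, a glutamine transporter, had 5, 20 and 30 conversions antisense to an AluJb at 47279270 to 47279317 on the minus strand of chromosome 19. LOC388796 had 21, 2 and 11 conversions antisense to an AluJo at 37051981 to 37052005 on the minus strand of chromosome 20. SETD5-AS1 had 12, 16 and 19 conversions antisense to an AluJo at 9404149 to 9404186 on the minus strand of chromosome 3, and only its cluster of replicate 2 met the rule.

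The 3 intergenic clusters found in every replicate had no gene on their own strand. The first, at 45187339 to 45187413 on the minus strand of chromosome 1, lay opposite C1orf228 and antisense to an AluJb, with 59, 6 and 29 conversions. The next, at 40008736 to 40008773 on the minus strand of chromosome 17, had 44, 23 and 30 conversions antisense to an AluSq. The last, at 113673672 to 113673714 on the plus strand of chromosome 1, had 34, 12 and 19 conversions antisense to an AluSx1. Of the clusters found in replicates 1 and 2 only, that at 6347724 to 6347758 on the minus strand of chromosome 5 stood out by its reads: 34 and 23 distinct reads carried 43 and 2 conversions.

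None of the 18 series-wide antisense Alu clusters in exons outside 3' untranslated regions was overlapped in all 3 replicates, and the following clusters were chosen after their values had been seen. GAS5 and SNHG1, noncoding host genes of small nucleolar RNAs, had 91 and 20 conversions (GAS5) and 88 and 2 (SNHG1) in replicates 1 and 2 and no cluster there in replicate 3. C16orf72 had 73 and 2 conversions in replicates 1 and 2. A large cluster of 1 replicate was that in an intron of UCK1, a uridine-cytidine kinase gene, with 66 conversions in replicate 3 and no overlap in the other replicates.

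Most genes with an antisense Alu cluster had 1. Such a cluster lay in 281 of 6044 genes with any cluster in replicate 1 (4.65%), in 1032 of 8683 in replicate 2 (11.9%) and in 347 of 3653 in replicate 3 (9.50%), and 32, 121 and 6 genes had 2 or more. ZNF587, another zinc finger gene, had 1, 6 and 1, of 4, 7 and 1 clusters of any kind. In replicate 2 these lay antisense to AluY, AluSz, AluJb and AluSg copies between 58367003 and 58374800 of chromosome 19. Among all genes whose symbol starts with ZNF, 16 of 153, 43 of 240 and 21 of 87 had an antisense Alu cluster. That was 10.5%, 17.9% and 24.1%, in each replicate above the share over all genes. Chromosome 19 held 13.4%, 12.7% and 10.4% of antisense Alu clusters and 10.1%, 8.54% and 8.65% of the lists.

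A sense Alu cluster was in the same gene for 53 of the antisense Alu clusters of replicate 1 (14.5%), 220 of replicate 2 (16%) and 20 of replicate 3 (5.21%). Within 2000 nt on the same strand there was a sense Alu cluster beside 52 (14.2%), 100 (7.27%) and 5 (1.30%), at a median gap of 512, 506.5 and 284 nt. Both counts had the same order over the replicates as the sizes of the lists, and Alu copies without a cluster were not counted. On the opposite strand of the same position, 0, 2 and 1 antisense Alu clusters had a cluster of their own. Genes with both kinds numbered 44, 174 and 24, and ERC1, SLC1A5 and METTL6 had both in each replicate.

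ERC1, which encodes the scaffold protein ELKS, had the most: 6, 7 and 2 antisense Alu clusters with 150, 127 and 44 conversions, beside 5, 6 and 3 sense Alu clusters with 84, 65 and 56. All lay in introns, and ERC1 had 29, 43 and 12 clusters of any kind. Sense clusters within an AluJb ran from 1311503 to 1311819 on the plus strand of chromosome 12, and antisense clusters opposite an AluSx ran from 1312221 to 1312580. The first antisense cluster, at 1312221 to 1312248, had 37, 15 and 15 conversions and followed the nearest sense cluster after 446, 502 and 401 nt. The next antisense clusters, at 1312292 to 1312347, had 18 and 45 conversions in replicates 1 and 2, and those at 1312495 to 1312580 had 63 and 20. A cluster opposite an AluSq at 1318008 to 1318045 had 1, 5 and 29 conversions.

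**Figure D5:**
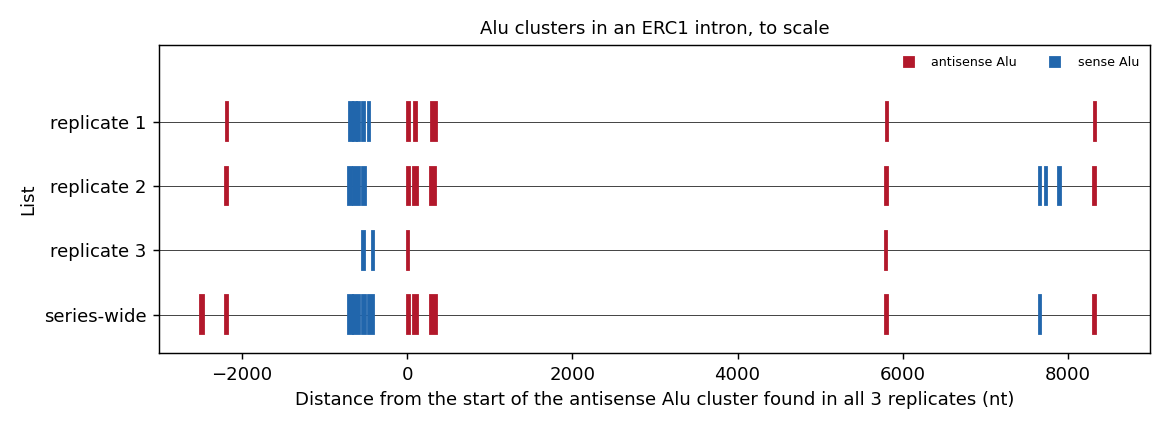
Clusters antisense to Alu (red) and within sense Alu (blue) in the ERC1 intron, to scale, as the distance in nt from the start of the antisense cluster found in all 3 replicates; each line is 1 list. In every list the nearest sense clusters lie upstream of this start, with a gap of 401 to 502 nt in the replicates, and further clusters lie farther off on both sides.

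In SLC1A5 the antisense AluJb clusters and a sense AluSz cluster at 47279580 to 47279629 lay 277, 262 and 284 nt apart, the sense cluster having 33, 6 and 42 conversions. In METTL6, a tRNA methyltransferase gene, the kinds were far apart, at 12278, 16278 and 12413 nt, and the antisense clusters of the 3 replicates lay at different positions. LIMD1 had its antisense cluster 224 and 215 nt before a sense cluster of 20 and 53 conversions in replicates 1 and 2, and no sense Alu cluster in replicate 3. PGAM5 had antisense clusters 241 and 353 nt after sense AluJo clusters in replicates 1 and 2. In replicate 3 PGAM5 had 2 sense Alu clusters with 13 and 21 conversions and no antisense Alu cluster.

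Of 17 genes listed because their transcripts are known for edited or inverted Alu repeats in the 3' untranslated region, 5, 6 and 3 had an antisense Alu cluster in replicates 1, 2 and 3. These were 9 genes in all: PAICS, XIAP, MDM2, MDM4, MAVS, NUP43, AHR, METTL7A and RBBP9. The MDM2 cluster, in replicate 1, lay in an intron and not in the 3' untranslated region. AHR alone had an antisense Alu cluster in every replicate, and 12, 11 and 9 of the 17 had a cluster of any kind. The share over all genes with a cluster, 4.65%, 11.9% and 9.50%, is lower, but the list was written with earlier results of these data known so no support is drawn from this. PAICS, an enzyme of purine synthesis, had 2, 3 and 0 antisense clusters with 56, 44 and 0 conversions, all opposite an AluJb between 57326117 and 57326311 of chromosome 4. XIAP, an inhibitor of caspases, had an antisense AluSz cluster of 7 and 1 conversions in replicates 1 and 2, 344 and 373 nt before a sense AluSx cluster. MDM4, an inhibitor of p53, had an antisense AluY cluster of 16 and 6 conversions in replicates 1 and 2, in replicate 1 at 95 nt from a sense AluSx cluster. Those without an antisense Alu cluster included LIN28A, NICN1, PSMB2, EIF2AK2, CTSS, F11R and BPNT1.

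Of 16 genes for proteins that bind or edit double-stranded or Alu RNA, 0, 3 and 1 had an antisense Alu cluster in their own transcript. Over all genes with a cluster the share was 4.65%, 11.9% and 9.50%, and nothing is read from so few genes. They were HNRNPC, which binds uridine runs in antisense Alu, with 6 and 1 conversions in replicates 2 and 3, and the helicase gene DHX9 with 9 and ELAVL1, another uridine-run binder, with 1 in replicate 2. All lay in introns, and the HNRNPC clusters of replicates 2 and 3 lay at different positions. The other 13, which include ADAR, ADARB1, STAU1, STAU2, ILF2, PRKRA and TARBP2, had none. A cluster of any kind was found in 13, 15 and 8 of the 16.

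The files give further values per cluster. The number of edits, which the files do not define and which is never below the number of conversions, exceeded it in 30.1%, 3.2% and 1.30% of antisense Alu clusters and in 35.9%, 4.44% and 3.04% of sense Alu clusters. The difference was −2.94 percentage points ± 2.52 (SD, n = 3; lower in 3 of 3; exact sign-flip permutation p = 0.25, adjusted p = 0.411). It was −1.49 points without replicate 1 and −10.99 points with at least 3 distinct reads. Clusters without Alu had 31.6%, 6.44% and 4.77%. One position per cluster is given under the abbreviation ccr, with no definition in the sources used here. Measured from the cluster's 5' end, its median lay at 52.3%, 56.7% and 61.8% of the length of antisense Alu clusters and at 46.5%, 50% and 54.2% of sense Alu clusters. The difference was 6.67 percentage points ± 0.939 (SD, n = 3; higher in 3 of 3; exact sign-flip permutation p = 0.25, adjusted p = 0.411), but −0.406 with at least 3 distinct reads. Antisense Alu clusters had 1.80, 1.17 and 1.01 positions with a conversion on average, and sense Alu clusters 1.68, 1.14 and 1.01.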

How the data were processed

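The authors deposited 4 lists of clusters, 1 for each replicate and 1 for all together, made by their PAR-CLIP program, per the file headers' source field. Bowtie2 2.1.0 and build hg19 are named per the submitters' processing notes. Per the file attributes, clusters carry an estimated false discovery rate of 5%, replicate lists were filtered by length, and each replicate had 2 runs. The main value, as deposited, is a count per cluster of T-to-C conversions, not scaled to depth. The authors' entropy score per cluster was read and not used. Distinct reads, lengths and the annotation of both strands are other deposited attributes.

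Members and gene lists were chosen with earlier results of these data known. Each cluster received 1 host, in the order 3' untranslated region, other exon, intron, intergenic. Clusters overlapped with at least 1 nt on the same strand. Differences were tested over the 3 replicates by exact two-sided sign-flip permutation (NumPy 2.4.6, pandas 2.3.3, SciPy 1.17.1, Python 3.11.15), with Benjamini-Hochberg adjustment over 23 tests, of which 8 were added after the data had been seen. Of the member genes, 1108 of 1388 symbols (79.8%) were in the RefSeq table of GRCh38.p14, so no property from it was used. Named clusters were, per host, the 8 of the series-wide list highest in conversions among those found in all 3 replicates, then in 2; named genes were those with 2 or more clusters there, those with both kinds in each replicate, and the listed genes. Overlap and difference calculations were tested on simulated data. A planned description of cluster sequences needs an hg19 genome and was not made. The alternatives tried were a minimum of 3 distinct reads, only the upper part of each list by conversions, from its median, other weights and summaries, a wider definition of members, stricter overlap, each replicate left out, and the series-wide list. Some results on withheld items are not reported here.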

Additional observations from a re-analysis of the deposited data

How the results depend on the processing

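Over 25 results, 201 values under an alternative were computed: 34 changed sign, 7 moved to another level or to 0, and 160 kept their direction, many of them at another size. No test could pass 0.05 with 3 replicates, so these are changes of value and not of a call, and their cause was not tested.

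With at least 3 distinct reads, the share of antisense Alu clusters was 2.67%, and the log2 antisense-to-sense ratio was −0.037 in all, −0.36 in introns, −0.11 in intergenic clusters and 0.72 for 3' untranslated regions minus introns (−0.32 as reported). Under the same minimum, median conversions against sense Alu differed by 0.55 (log2), intronic ones against no Alu by −0.00275, median distinct reads by −0.5, the AluY share by −0.183 points, the ccr position by −0.406 points, and recurrence in 3' untranslated regions against no Alu by −5.92 points. Recurrence in introns then differed by −33.5 points (−11.8 as reported), and the share found in both other replicates by −7.92 points from sense Alu (−0.854 as reported). Weighted by conversions or distinct reads, the share was 0.848% or 2.24%.

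With only clusters at or above the median of the list, log2 conversions against no Alu differed by −0.033 in 3' untranslated regions, −0.032 in intergenic clusters and −0.044 in introns, and against sense Alu by 0.023. Length then differed by −0.167 nt, and the share found in both other replicates by 0.878 points. With exactly 2 distinct reads, a setting added after seeing the data, that share differed by 0.447 points. With means of log2 values, the conversion differences were 0.018 against sense Alu, −0.16 in introns and −0.042 in intergenic clusters. In the series-wide list they were 0.093 against sense Alu, and −0.12, −0.18 and −0.0995 in 3' untranslated regions, introns and intergenic clusters. The series-wide intergenic log2 ratio was −0.072, distinct reads differed by 1, length by −1 nt, and recurrence in 3' untranslated regions by −4.93 points.

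With each replicate left out in turn, the log2 ratio in all hosts ran from 0.27 to 0.41. That in 3' untranslated regions ran from −0.11 to 0.34, and minus that of introns from −0.63 to 0.085. Log2 conversions ran from −0.039 to 0 against sense Alu, from 0 to 0.044 in introns and from −0.076 to 0.15 in intergenic clusters. Length differences ran from −0.25 to 0.5 nt, and recurrence in 3' untranslated regions from −1.18 to 3.25 points. The share found in both other replicates, which with 2 replicates left means in the other one, differed from sense Alu by −0.179 to 1.56 points. The share of antisense Alu clusters, 6.10%, was 7.57% without replicate 1.

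No paired analysis was possible because the samples form 1 group, with no second condition to pair; the tests compared kinds of cluster within each replicate. The depth limits what can be said of single clusters: at least 3 distinct reads stood behind 39.9%, 14.7% and 3.91% of antisense Alu clusters in replicates 1, 2 and 3.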
